A study of Drosophila melanogaster and Drosophila persimilis and Drosophila pseudoobscura with 5 samples.

Results

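The library of D. simulans was set against those of D. melanogaster, D. yakuba, D. pseudoobscura and D. persimilis, all made from Johnston's organ, and 750 of the 4982 genes that could be compared lay outside the range of the other 4 libraries by at least 2-fold. Of these, 278 were above the highest other library and 472 were below the lowest. The genes come from the authors' cross-species table, which lists 8180 genes under D. melanogaster symbols. A gene was compared when its signal averaged at least 5 over the 5 libraries, and the distance between libraries, here called the gap, was taken on log2(signal + 1), so that it understates the difference of low genes. A gap of 1 is the 2-fold threshold.

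Each species was represented by 1 library of total RNA from adult flies raised at 25 °C, labelled as Johnston's organ and with no treatment named. By textbook phylogeny D. melanogaster is the closest relative of D. simulans here and D. yakuba the next, all in the melanogaster group, while the remaining pair is of the obscura group. No source used here gives strain, sex, exact age, the number of flies or the day of dissection. A difference in any of these, in the tissue taken or in the library cannot be told apart from a difference between species. With 1 library per species no difference has a replicate check and none was tested: "higher" and "lower" describe these 5 libraries.

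Johnston's organ is the hearing, gravity and wind sensor of the fly, a large chordotonal organ in the second segment of the antenna. Its neurons carry a cilium at the tip of the dendrite, in which TRP channels turn the movement of the antenna into current, and each neuron is held between glia-like scolopale, cap and ligament cells. The cilium is built by intraflagellar transport, the movement of protein trains along its microtubules. The third antennal segment, which borders the organ, carries the olfactory sensilla and the odorant-binding proteins of their lymph.

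No source used here says how the authors made the signal values. Their upper quartile is the same in every library (34.3), and for a majority of the genes that could be checked they behave as reads divided by gene length, with a length that differs between libraries. The D. simulans library had 7580214 reads counted on genes, the fewest of the 5, and the others between 9236301 and 22391819. The table listed 2321 of the 8180 genes at 0 in D. simulans, against 1397 to 2197 in the others. Of 11 marker genes of Johnston's organ and chordotonal neurons, 7 were in the table, and their summed signal was 27.9 in D. simulans, within the range of 8.99 to 46.0 of the other libraries. Rootletin alone gave 22.5 of it. Without Rootletin the sum was 5.43 in D. simulans against 32, 19, 26.4 and 8.93 in D. melanogaster, D. yakuba, D. pseudoobscura and D. persimilis. D. simulans was then the lowest, but that sum includes nan, a gene called lower below, which gave 7.13 of it in D. persimilis. With Rootletin kept and nan left out, the sum was 27.8 in D. simulans against 32.6, 19.5, 19.2 and 1.86 in the same order. The proneural gene ato was listed at 0 in all 5. The 5 olfactory segment markers in the table summed to 24898 in D. simulans and to between 29530 and 107976 in the others, so that every library also held RNA of genes known from the third segment. This sum includes antdh, a gene called lower. Without Pbprp2, its largest member in D. simulans, it was 12570 there. D. melanogaster was then lower at 9549, and D. yakuba, D. pseudoobscura and D. persimilis had 20711, 58816 and 40517.

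The same rule applied to each library in turn placed D. simulans first in both directions. D. simulans was higher for 5.58% of the compared genes and lower for 9.47%. D. melanogaster was higher for 3.39% and lower for 5.44%, D. yakuba for 2.01% and 3.85%, D. pseudoobscura for 2.69% and 6.32%, and D. persimilis for 3.51% and 7.93%. These percentages are the background for every count below. The split between directions depended on the scaling: 37.1% of the D. simulans calls were higher under the authors' scaling, but 13.98% were when all libraries were scaled to equal totals, which gave 112 higher and 689 lower genes and moved the median difference of all compared genes from 0.10 to -0.41.

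**Figure D1:**
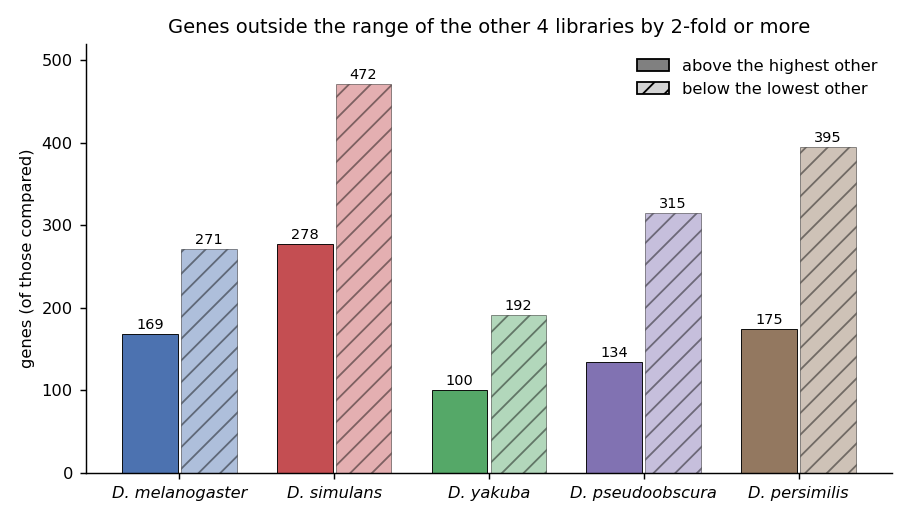
Number of genes, of 4982 compared, whose log2(signal + 1) lay at least 1 above the highest (plain bars) or below the lowest (hatched bars) of the other 4 libraries, for each species in turn, with 1 library per species. D. simulans has the tallest bar in both directions, 278 genes higher and 472 lower.

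The genes higher in D. simulans had a median gap of 1.53, which is 2.88-fold on signal + 1, and 38 of the 278 had a gap of 8-fold or more. In 208 the signal was above 0 in all 5 libraries, and in the other 70 some other library was listed at 0. The lower genes had a median gap of 1.71, or 3.27-fold, and 51 of the 472 had 8-fold or more. Of these, 386 were above 0 in all 5 libraries and 86 were listed at 0 in D. simulans. Outside D. melanogaster a 0 in the table can also be a gene that was not matched between annotations. D. simulans was the highest of the 5 libraries by any margin for 1175 of the 4982 compared genes and the lowest for 1140. Since the D. simulans value counts in the mean of 5 libraries, 121 genes were compared only because of it, and 64 of the higher genes are among them. With the mean taken over the other 4 libraries instead, 4988 genes were compared, of which 214 were higher, all among the 278, and 508 lower, with all 472 among them.

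Genes of the light response were among those far above the other libraries. In the eye, rhodopsins absorb light and activate a Gq protein, which opens the TRP channels, and arrestins end the response. The table holds 19 phototransduction genes and 14 were compared, of which 12 were higher in D. simulans and none was lower. Of the 12, Rh5, Rh6, trp, inaC, inaD and inaF-B were compared only because of their D. simulans value, which nearly fixes their call. Of the 8 whose mean over the other 4 libraries reached 5, 6 were higher, against 4.4% of the 4861 compared genes that passed in this way. The median difference of the 14 from the mean of the other libraries was 5.22, against 0.10 for all genes compared. It includes the 6 genes compared only because of their D. simulans value, so that the filter partly sets it. For the 5 above 0 in all 5 libraries, which include none of these 6, the median was 4.02. In bulk RNA more cells of a type and more RNA per cell cannot be told apart. Signals below are given for D. simulans and then, after "against", for D. melanogaster, D. yakuba, D. pseudoobscura and D. persimilis in this order.

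The rhodopsin of the outer photoreceptors, ninaE (3R:19886255-19888206, coordinates here and below are those of the D. melanogaster gene in BDGP6), had a signal of 4220.3 against 51.6, 146, 12.4 and 24.3, a gap of 4.85. The arrestin Arr2 reached 1991 against 35.2, 91.3, 0 and 36.7. The second arrestin, Arr1, had 430.4 against 6.30, 22.3, 3.40 and 46.5, and D. simulans was above all other libraries for each of the 3 genes. Among the rhodopsins of the inner photoreceptors, Rh4 was at 336 against 5.78, 16.4, 0 and 0. For Rh6 the signals were 85.7 against 1.26, 7.31, 0 and 0. Rh5 had 68 against 1.28, 0, 0 and 16.1, the smallest rhodopsin gap at 2.01. All 4 rhodopsins were thus above every other library, and the nearest one was D. yakuba for ninaE, Rh4 and Rh6 and D. persimilis for Rh5. The light-gated channel trp had 80.1 against 2.40, 7.42, 0 and 0.107. Its regulator inaF-B was at 39.8 against 0, 0, 0 and 0, listed at 0 in every other library. Of the signalling complex around the channel, the eye protein kinase C, inaC, was at 65 against 0.572, 1.00025, 0 and 0.0957, a gap of 5.04. The channel, its regulator and the kinase were at or near 0 in both obscura group libraries. The scaffold inaD had 43.9 against 2.03, 3.15, 0 and 6.12. The calmodulin-binding retinophilin, rtp, had 269 against 9.43, 23.5, 0 and 4.27. The Gq alpha subunit Galpha49B, which other tissues also use, had the smallest ratio to D. melanogaster and to D. yakuba, with 143 against 25.4, 24.1, 1.06 and 3.48.

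In ratio to D. melanogaster the 11 of these 12 genes with signal there lay between 5.62-fold (Galpha49B) and 114-fold (inaC), with a median of 56.6-fold. Against D. yakuba the median was 16.6-fold over 10 genes. The D. pseudoobscura library listed 9 of the 12 at 0. The 2 compared members that were not called supply the chromophore: the carotenoid oxygenase ninaB had 5.11 against 2.65, 5.58, 19.1 and 19 and the scavenger receptor ninaD 19.7 against 8.76, 12.9, 1.13 and 9.65, and neither stood 2-fold outside the range. Chaoptin, chp, an adhesion protein of photoreceptor membranes, was also higher (58.8 against 1.60, 10.2, 0 and 0), and was compared only because of its D. simulans value. It comes from a list of eye pigment and other eye genes, of which 4 were compared and chp alone was called. The other 3 had a median difference of -0.84 from the mean of the other libraries, and 2 of the 4 were lowest in D. simulans. Of 12 eye markers the 10 in the table were all highest in D. simulans, and their summed signal was 7328 there against 107, 295, 15.8 and 130. This sum is no separate measure, since 9 of the 10 are called genes given above. The remaining one, the ocellar rhodopsin Rh2, had 7.36 against 0.439, 0.262, 0 and 0 and was too low to be compared. Whether the D. simulans library held eye tissue was not tested.

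The table holds 15 eggshell genes, of which 7 were listed at 0 in D. simulans and only 3 were compared. These are Cp18, Cp15 and Cp19, which encode chorion proteins made by the follicle cells of the ovary and are neighbours at 3L:8726791-8730604. All 3 were higher, but Cp18 and Cp19 were compared only because of their D. simulans value, so that the count rests on Cp15. Cp15 had 917 against 5.82, 43.3, 0 and 85.5, Cp19 had 82.9 against 0.737, 2.36, 0 and 0 and Cp18 had 38.6 against 1.11, 2.16, 0 and 0. D. simulans was above the others in each, with gaps of 3.41, 4.64 and 3.65, and none of the 3 had signal in D. pseudoobscura. In D. melanogaster the counts behind these signals were 50 reads for Cp15, 8 for Cp19 and 12 for Cp18. The 7 follicle cell markers in the table, of 10, summed to 1071 in D. simulans against 9.12, 52.2, 0 and 98.4, a sum that includes the 3 called genes. The 4 others summed to 33.1 against 1.45, 4.31, 0 and 12.9, and of these Cp36 was listed at 0 in D. simulans. Among 5 compared genes of the oocyte and female germline none was called in either direction. The part of ovary RNA in these values was not tested.

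A list of yolk, storage and fat body genes, which also holds the hormone Akh, was higher for 3 of 17 compared and lower for none. The gene fit, known as a female-enriched gene of the head fat body in D. melanogaster, had the highest D. simulans signal of all genes higher there, 22913 against 1076, 189, 1508 and 1972, with a gap of 3.54. Yolk protein 2, Yp2, had 11514 against 4856, 2442, 431 and 72.5. Akh is made in neuroendocrine cells and not in the fat body, and encodes the adipokinetic hormone, which mobilises stored lipid. It had 22.7 against 2.13, 7.26, 0 and 1.59 and was compared only because of its D. simulans value. In each of these 3 D. simulans was above every other library by 2-fold, while for Yp1, at 8226 against 7491, 3489.5, 1599 and 931, D. melanogaster was nearly as high. Relative to the all-gene median the list median was 1.43. Under equal totals Yp2 and Akh had gaps of 0.34 and 0.93 and were not called. The 5 fat body markers in the table, of 6, summed to 19800.2 in D. simulans against 12845, 5932, 2080.4 and 1056, which includes Yp2. Without Yp2 the sum was 8286 against 7989, 3490, 1650 and 984, most of it from Yp1 in each library. Of the other 3 markers, tobi had 48.1 against 41.4, 0, 19 and 30.5. Lsp2 had 10.2 against 453, 0.0814, 32.1 and 22.6 and Fbp1 1.23 against 3.29, 0.157, 0 and 0, both highest in D. melanogaster. The part of fat body RNA in the result was not tested.

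Immune genes were higher for 4 of 25 compared and lower for none. By any margin 12 of the 25 were highest in D. simulans, as were 1175 of all 4982 compared genes. Defensin, Def, an antibacterial peptide, had 293 against 2.25, 2.37, 7.53 and 6.56, a gap of 5.11. The attacin AttD had 109 against 4.69, 0, 0 and 0. Metchnikowin, Mtk, an antifungal peptide, had 2703 against 899.8, 79.4, 344 and 28.3. The Imd pathway inhibitor pirk had 21.5 against 2.67, 5.77, 0 and 0. All 4 lay above the range of the other libraries, and AttD was listed at 0 in 3 of them. Def, AttD and pirk were compared only because of their D. simulans value, and of the 22 others 1 (Mtk) was higher, 4.55% against 4.4% of all 4861 such genes. Listericin, an antibacterial peptide outside the list, was named for its gap of 5.11 and had 2279 against 20.1, 65, 5.76 and 3.28. The other 21 compared genes of the list were not called, among them the Toll pathway protease SPE at 651 against 590.4, 199, 246 and 258 and the NF-kB factor Rel at 68.4 against 63.7, 29.8, 18.6 and 8.38. Under equal totals Mtk had a gap of 0.68, below the threshold.

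Haemocyte genes were higher for 3 of 11, and D. simulans was the highest library for 10 of the 11, against 1175 of all 4982 compared genes. Prophenoloxidase 1 (proPO-A1), the enzyme of the melanisation response made by crystal cells, had 466 against 52.7, 116, 47.7 and 26.6. Prophenoloxidase 2 (PO45) lay just outside the threshold, with 528 against 113, 264, 141 and 94.7 and a gap of 0.99. The Nimrod family genes nimB3 and nimB1 had 522 against 69.9, 6.68, 24.7 and 92.7 and 67.7 against 22.6, 14.7, 0 and 22.7. The 3 haemocyte markers in the table, of 4, summed to 1023 in D. simulans against 176, 399, 197 and 127, and include proPO-A1. Their part in the immune genes was not tested. Under equal totals nimB1 had a gap of 0.66.

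Heat shock and stress genes were higher for 3 of 15 and lower for none. The small heat shock proteins Hsp26 and Hsp67Bc, chaperones that bind unfolded proteins, are near each other on 3L. Hsp26 (3L:9376418-9377427) had 1762 against 39.1, 76.9, 24.6 and 67.5, a gap of 4.50, and Hsp67Bc (3L:9371511-9372497) had 139 against 0.425, 8.11, 17.9 and 19.4. The metallothionein MtnD had 58.5 against 17.3, 1.28, 1.97 and 13.4, and under equal totals its gap was 0.83. Hsp22 was also highest in D. simulans but by less than 2-fold, with 2895 against 0, 58.8, 841 and 2507, and it was listed at 0 in D. melanogaster. The constitutive chaperone Hsc70-3 had 239.8 against 142, 169, 106 and 115.2 and the heat shock factor Hsf 26.8 against 27.5, 36.8, 19.3 and 9.71, so that the higher signal did not extend to these 2 genes by the rule. Of the glutathione and UDP-glycosyl transferases 2 of 23 were higher and 1 was lower. GstD9 had 1089.7 against 65, 149.7, 21 and 48.6 and the theta class transferase GstT1 (CG30000) 150.2 against 30.8, 39.8, 13.5 and 11.7, while Ugt35a was lower, with 15.5 against 201, 56.5, 84.9 and 68.2. The glycine N-methyltransferase Gnmt (CG6188), which uses up S-adenosylmethionine, was among the largest gaps upward above 0 in all libraries, with 998 against 67.3, 93.6, 101 and 44.3.

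Digestive proteases and maltases were higher for 2 of 10. Jon25Bi, a Jonah serine protease known from the gut, had 1489.7 against 0.623, 18, 4.57 and 45.7, a gap of 4.997, and Jon65Aiii had 583 against 254, 263, 35.5 and 85.8. Under equal totals the gap of Jon65Aiii was 0.29. Of the genes listed at 0 in some library, CG7829 had the largest gap, with 772 against 0, 0, 0 and 0. CG11211 had 789.6 against 0.101, 0, 0 and 0, with 1 read counted in D. melanogaster. The carbonic anhydrase family member CAH5 (CG18673) had 243 against 0, 0, 0 and 0. CG3088 had 1425 against 0, 0, 0.0881 and 11.5. These 4 genes were at or near 0 in all libraries but D. simulans, except for CG3088 in D. persimilis, so that a ratio to the other libraries is not given, and all 4 were compared only because of their D. simulans value.

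**Figure D2:**
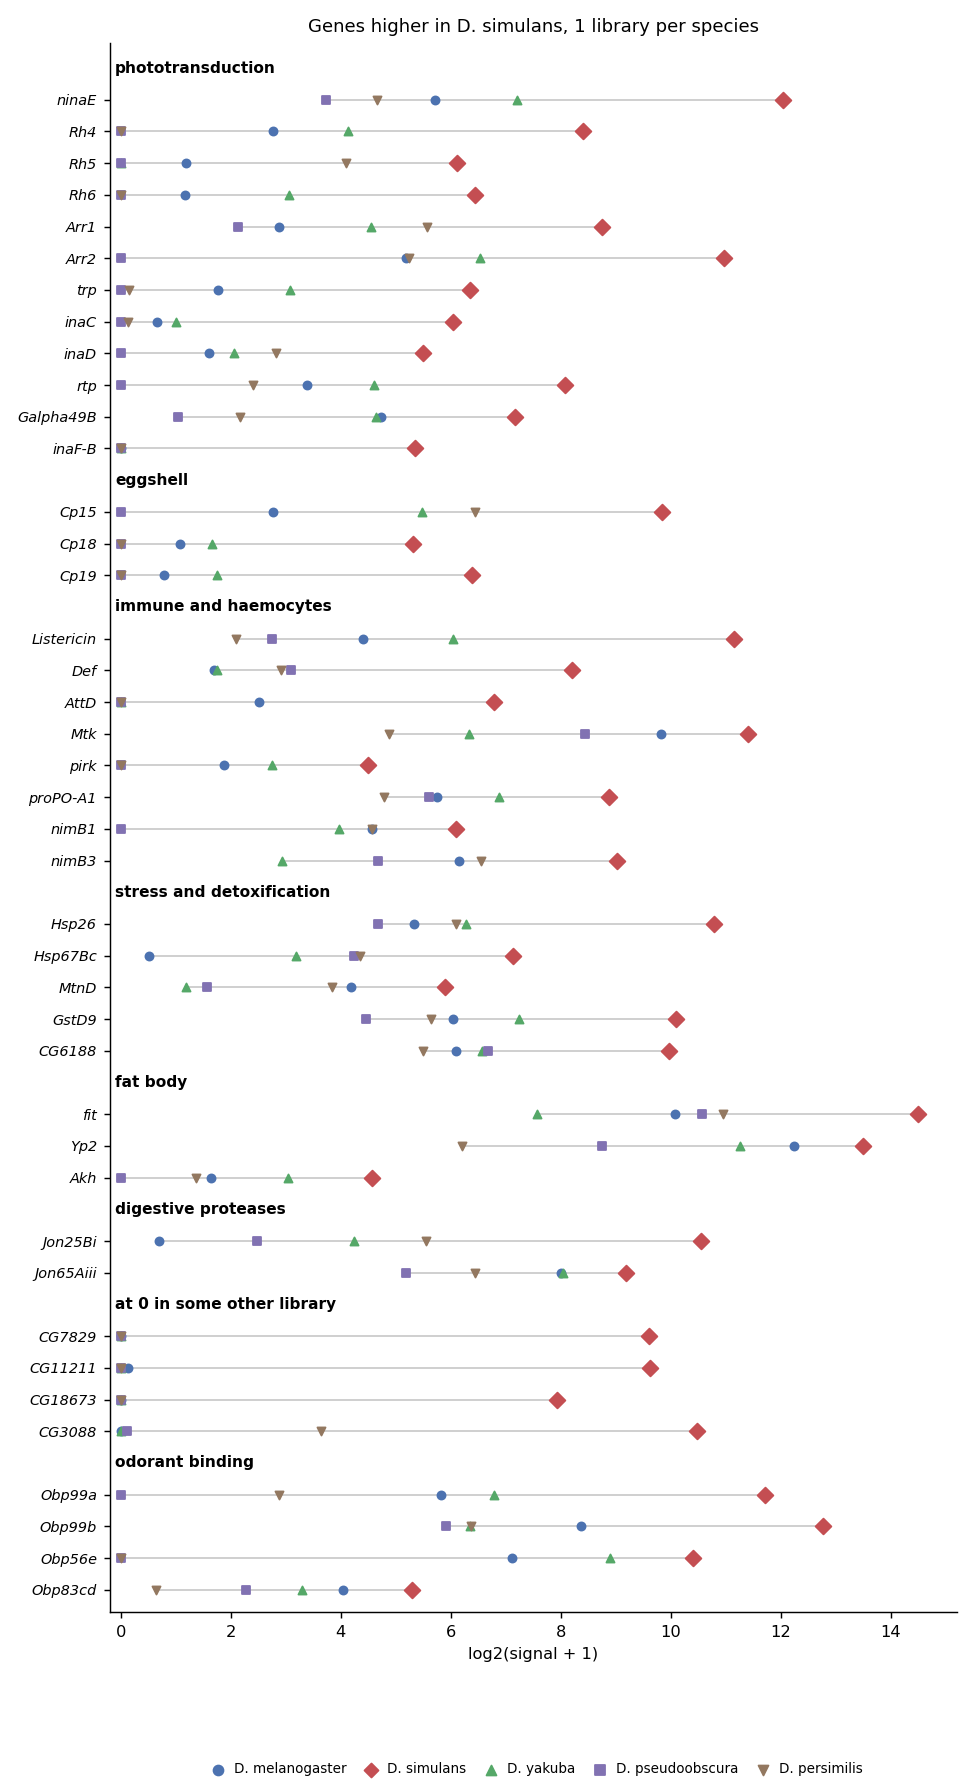
Signal on a log2(signal + 1) axis for genes higher in D. simulans, grouped by role, with 1 point for each of the 5 libraries and a line over their range. The D. simulans points (diamonds) lie at least 1 unit to the right of every other point, and the eye and eggshell genes were at 0 in D. pseudoobscura in most cases.

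Odorant-binding proteins were called in both directions, 4 of 24 higher and 1 lower. Obp99a had 3347 against 55.6, 109, 0 and 6.32 and Obp99b had 6928 against 330.5, 80.8, 59.2 and 81.3. Obp56e had 1354 against 137, 472, 0 and 0, and Obp83cd had 38.3 against 15.4, 8.82, 3.82 and 0.551. D. simulans was thus above the range for these 4, and below it for Obp49a, with 4.47 against 14.5, 34, 429 and 367. Obp56e and Obp83cd had gaps of 0.89 and 0.39 under equal totals. None of 19 compared odorant, gustatory and ionotropic receptors was higher. The co-receptor Ir25a, which also serves temperature entrainment of the clock in chordotonal neurons of D. melanogaster, was lower, with 0.537 against 7.08, 34.4, 17.3 and 15.4, and the olfactory co-receptor Orco was not called, with 70.9 against 80.6, 622, 345 and 319. Relative to the all-gene median, the receptor list had a median of -1.51 and the odorant-binding proteins one of 0.26.

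Of the abundant housekeeping classes, the cytosolic ribosomal proteins were higher for 7 of 50 and lower for none, against 5.58% and 9.47% of all genes. RpLP2, a protein of the ribosomal stalk, had 10785 against 2891, 3099, 3694 and 3734. RpS14a had 4212 against 550.1, 1609, 1659 and 1942. RpS5b, a paralogue known from the germline in D. melanogaster, had the largest gap of the list, 3.04, at a low level, with 29.5 against 0.307, 2.70, 0 and 1.14, and was compared only because of its D. simulans value. The other 6 gaps lay between 1.02 (RpS12) and 1.53 (RpLP2), and under equal totals 1 gene of the list, RpS5b, was called. Some ribosomal protein genes have a near-identical copy elsewhere in the genome, which makes their counts uncertain, and which of those named here do was not examined. The respiratory chain and ATP synthase list was higher for 3 of 52 and lower for 1, while 49 of the 52 were above the mean of the other libraries. The median difference from that mean was 1.01 for the list and 0.10 for all compared genes. Cytochrome c oxidase subunits COX5A (CoVa) and COX7B (CG7630) had 14005 against 3731, 5396, 3072 and 4921 and 18089 against 5651, 5454, 3139 and 8089, and the complex III subunit UQCR-Q (CG7580) had 15725 against 2009, 5513, 3079 and 7106. The stalk subunit of the ATP synthase, Oscp, went the other way, with 440.0 against 1991, 3992, 2326 and 7822, and was lowest in D. simulans. Equal totals removed all 3 higher calls of this list and kept 1 lower one.

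Muscle genes were higher for 1 of 14. Myofilin, Mf, a thick filament protein, had 14329 against 370.2, 3714, 891 and 2374. The glycolytic enzyme aldolase, Ald, had 14896 against 1962, 5387, 1565 and 3368, and under equal totals its gap was 0.83. The 2 muscle markers in the table, of 4, summed to 11162 in D. simulans against 1253, 6749, 3247 and 20118, but the 2 differed. Mlc2 had 7547 against 895.5, 4191, 2726 and 17256, so that D. persimilis was the highest. TpnC4 had 3615 against 357, 2558, 521 and 2862 and, like Mf, was highest in D. simulans. Their part in the values of Mf was not tested.

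**Figure D3:**
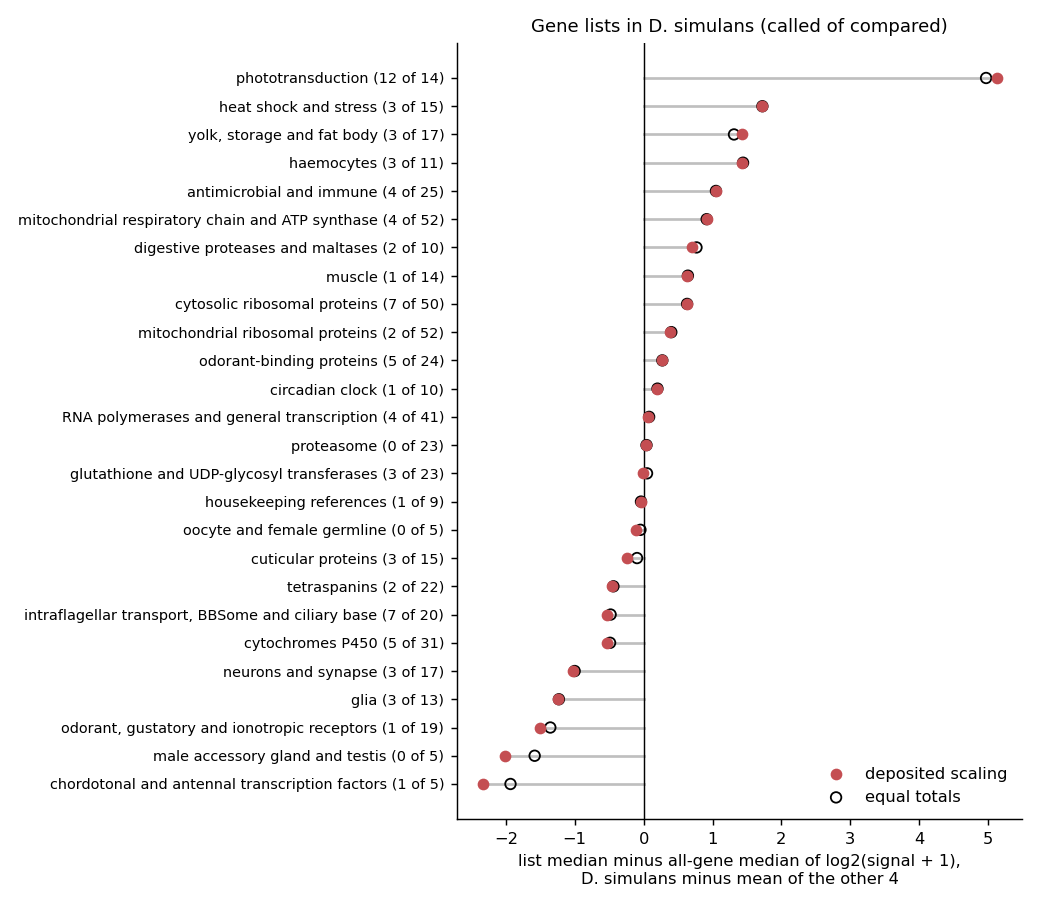
Median difference of each gene list between D. simulans and the mean of the other 4 libraries, on log2(signal + 1) and less the median of all compared genes, for the 26 lists with at least 5 compared genes. Filled points use the authors' scaling and open points equal library totals. Phototransduction lies furthest to the right, and chordotonal and antennal transcription factors furthest to the left, on 5 genes. Some lists include genes compared only because of their D. simulans value, 6 of 14 for phototransduction.

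Among the genes lower in D. simulans were channels and ciliary genes of sensory neurons. Of 4 compared mechanosensory channels 2 were lower and none was higher. The TRPV subunit nan (3L:14186249-14189648), needed for hearing in D. melanogaster, had 0.0834 against 13.4, 11.9, 7.15 and 7.13, a gap of 2.91. By the size of 1 read in this library its signal in D. simulans stands for about 1.53 reads, against 639 counted in D. melanogaster. The TRPA channel wtrw (3R:7891331-7901147), which serves the sensing of moist air in D. melanogaster, had 6.71 against 77.9, 75.2, 71.8 and 26.6, on about 146 reads in D. simulans. The other 2 channels, pain at 17.9 against 58.5, 44.7, 5.77 and 5.92 and ppk at 14.3 against 11, 14.6, 20.5 and 20.3, were inside the range.

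Genes of intraflagellar transport, the BBSome and the ciliary base were lower for 7 of 20 and higher for none, 35.0% against 9.47% of all genes. The BBSome is a cargo adaptor complex that rides on the transport trains. Its subunit BBS4 (2R:11135923-11139315) had the largest gap of the list, 4.60, with 0.0931 against 39, 25.5, 55.4 and 69.1, on about 1 read in D. simulans. BBS9 (CG15666) had a small gap of 1.02, with 11.5 against 24.4, 44, 30.6 and 27.8. Among transport subunits, Oseg4 had 0 against 7.69, 7.21, 3.93 and 9.89, Oseg1 had 0.318 against 5.88, 13, 8.02 and 4.20 and Oseg5 had 0.292 against 2.04, 15.9, 8.25 and 9.17. IFT46 (CG15161) had 0 against 4.79, 29.8, 24.3 and 2.42. Chibby, Cby, a protein of the ciliary base, had 8.53 against 18.6, 91, 127 and 96.2. D. simulans was below the other libraries in all 7, but Oseg4 and CG15161 were listed at 0, and 3 more rested on fewer than 10 estimated reads. BBS4, Oseg1, Oseg4, Oseg5 and Cby share exonic bases with another gene, as do 42.3% of all compared genes, and CG15161 and CG15666 do not. What such overlap adds to their values was not tested. The list as a whole was less displaced, with a median of -0.53 relative to all genes and with 6 of the 20 above the mean of the other libraries. With a pseudocount of 5 BBS4 alone of the 7 kept its call, and Cby and CG15666 were also below the threshold under TMM scaling, at 0.93 and 0.90. Some neuron genes were also lower in D. simulans, and its library had the fewest reads, and the part of either in these values was not tested.

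Neuron and synapse genes were lower for 3 of 17 and higher for none. Ih, the hyperpolarisation-activated channel, had 5.51 against 47.5, 45.5, 27.7 and 29. The voltage-gated sodium channel para had 0 against 16.5, 10.4, 14.9 and 3.31, listed at 0 in D. simulans. Acetylcholinesterase, Ace, had 2.34 against 13.9, 33.8, 14 and 7.41. Each of these 3 was below the range, but the vesicle protein Syt1, at 27.6 against 21.1, 28.8, 72.4 and 48.7, and n-syb, at 41.8 against 36.9, 142, 109.7 and 106, were not. Of the antennal and chordotonal transcription factors 1 of 5 was lower, spineless (ss), which gives the distal antenna its identity, with 0.885 against 24.2, 21.3, 11.6 and 5.05. By any margin 4 of the 5 were lowest in D. simulans, as were 1140 of all 4982 compared genes. Of 10 clock genes the transcription factor Clk was lower, with 0.135 against 10.1, 4.91, 9.02 and 2.35 on about 3.07 reads. With a pseudocount of 5 para, Ace, ss and Clk had gaps of 0.73, 0.76, 0.77 and 0.52, so that Ih alone of these kept its call.

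Glial genes were lower for 3 of 13 and lowest in D. simulans for 7 of 13, against 1140 of all 4982 compared genes that were lowest there. Mdr65, a transporter of the blood-brain barrier, had 0.557 against 64.1, 39, 6.59 and 22.8. The gap junction protein Inx2 had 17.6 against 57.1, 159, 311 and 111. The surface protein wrapper had 0.544 against 2.95, 32.9, 8.18 and 5.02. All 3 were below every other library. The glial sodium pump subunit nrv2 was lowest in D. simulans without passing the threshold, with 363 against 1338, 1223, 1267 and 511. The glial identity factor repo was inside the range, with 12.7 against 15.2, 22, 30.5 and 0.811. The 3 glia markers in the table, of 4, summed to 37.8 in D. simulans against 80.7, 118, 47.8 and 50.4, a sum that includes Mdr65. Without Mdr65 it was 37.2 against 16.7, 78.7, 41.2 and 27.6, inside the range. With a pseudocount of 5 wrapper had a gap of 0.52, and with the length trend removed Inx2 (inx2) had 0.68.

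Several genes of high signal elsewhere were also lower. The antennal dehydrogenase Antdh (antdh), an enzyme of the olfactory segment, had 2700.2 against 5474, 8669.6, 18797 and 20709, with a gap of 1.02 that was 0.90 under TMM scaling. The sodium pump subunit Atpalpha (3R:20948714-20976239) had 175 against 873, 743, 886 and 383. CG17919 had 23.9 against 607, 389, 1589 and 2532, a gap of 3.97, and the microsomal glutathione transferase Mgstl had 30.6 against 535, 106, 1259 and 653. These values rest on many reads in D. simulans, about 14941 for Antdh, 4028 for Atpalpha, 107 for CG17919 and 103 for Mgstl. The cuticular protein Cpr49Ae had 6.38 against 73.1, 169, 521 and 637. The tetraspanins Tsp39D and Tsp3A had 12.5 against 35.8, 101, 94.5 and 90.8 and 0 against 9.74, 28.9, 51.8 and 20.5.

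The largest gaps downward among genes above 0 in all libraries belonged to CG9572 (aspr), with 1.36 against 86.1, 95.2, 277 and 185, CG7196, with 0.103 against 36.9, 27.2, 41.5 and 81.9, and CG10514, with 0.438 against 52.4, 132, 46.3 and 34.9. CG14342 had 5.75 against 153, 304, 159 and 224, and CG18302 had 7.13 against 130.4, 115.2, 133 and 123. The phosphoinositide phosphatase Sac1 had 0.656 against 41, 50.4, 21.6 and 18.2 and the TGF-beta ligand myoglianin (myo) had 1.07 against 59.9, 41.6, 24.2 and 38.1. All of these were at least 8-fold below the lowest other library on signal + 1. Of the genes listed at 0 in D. simulans, 14-3-3zeta, a widely expressed adaptor protein, had 0 against 522, 1141, 590.5 and 607, with 31679 reads in D. melanogaster. SmF, a core protein of the spliceosomal particles that every cell uses, had 0 against 83.4, 100.2, 164 and 270.5. Since genes of general use were among them, a 0 in D. simulans is given as listed at 0 and not as absence of the RNA.

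**Figure D4:**
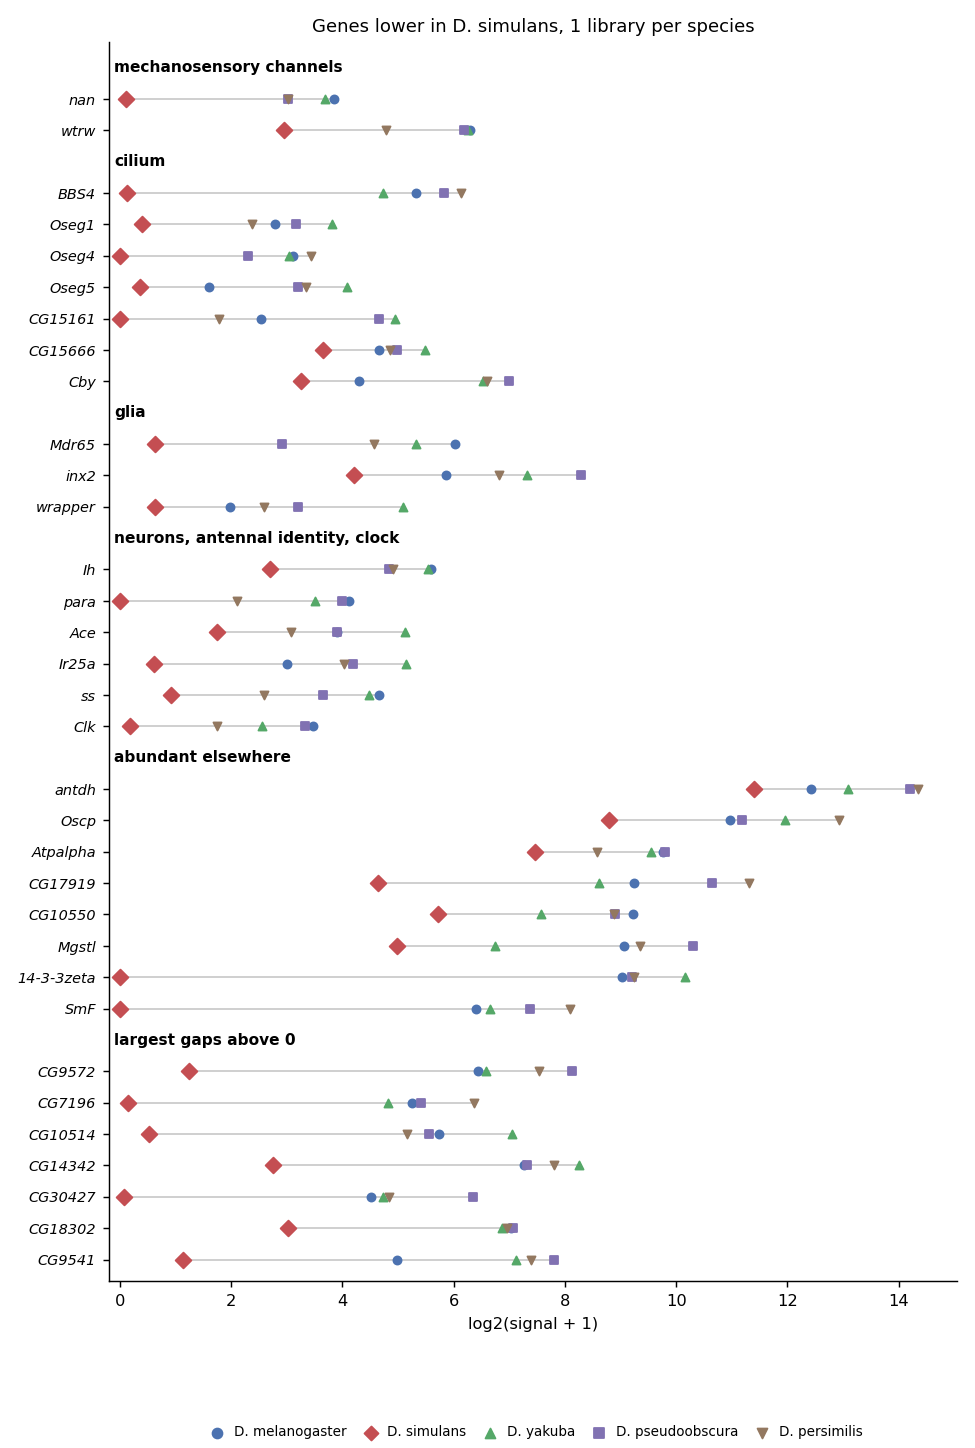
Signal on a log2(signal + 1) axis for genes lower in D. simulans, grouped by role, with 1 point for each of the 5 libraries and a line over their range. The D. simulans points (diamonds) lie at least 1 unit to the left of every other point, and para, Oseg4, CG15161, 14-3-3zeta and SmF sit at 0.

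The reads behind the calls were estimated from the smallest steps in the values. These estimates come from the D. simulans signal that the rule used, so that their contrast between directions follows from the calls. The 276 higher genes with a known coding length had a median of about 910.1 estimated reads in D. simulans, and each had at least 20. The 467 such lower genes had a median of about 19.0 estimated reads, and 139 of them had fewer than 3.5. With 95% exact Poisson limits on the estimated D. simulans reads, the lower limit stayed 2-fold above the highest other library for 248 of the 276, and the upper limit stayed 2-fold below the lowest for 396 of the 467. These limits cover counting error in 1 library only and were taken on genes already called, so that they are no separate check. Counting was also limited to the 3928 genes whose lowest other signal would be worth at least 20 reads in D. simulans. Of these 444 were lower (11.3%), all among the 472. A lower call itself needs a lowest other signal of at least 1, which favours that a called gene remains.

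Calls varied with the level and length of the gene. To keep the D. simulans value out of the level, the 4988 genes whose mean over the other 4 libraries reached 5 were put in 4 equal bins of that mean. From the lowest to the highest bin, 3.05%, 3.05%, 5.53% and 5.53% of genes were higher and 14%, 11.5%, 9.14% and 6.01% were lower. The median exon length of the D. melanogaster gene was 1320 bases for the higher genes, 2396 for the lower and 1815 for all compared. In 5 equal bins of length, the shortest genes (268 to 1051 bases) had 9.83% higher and 4.56% lower, and the longest (3247 to 24343 bases) had 2.13% higher and 14.1% lower. The difference of D. simulans from the other libraries fell with length, with a Spearman correlation of -0.19 across 4926 genes, where that of D. persimilis was -0.35, of D. pseudoobscura -0.04, of D. melanogaster 0.32 and of D. yakuba 0.37. These are descriptions across genes, which share their libraries. With a trend on exon length removed, 292 genes were higher, of which 217 were among the 278, and 457 were lower, of which 401 were among the 472.

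**Figure D5:**
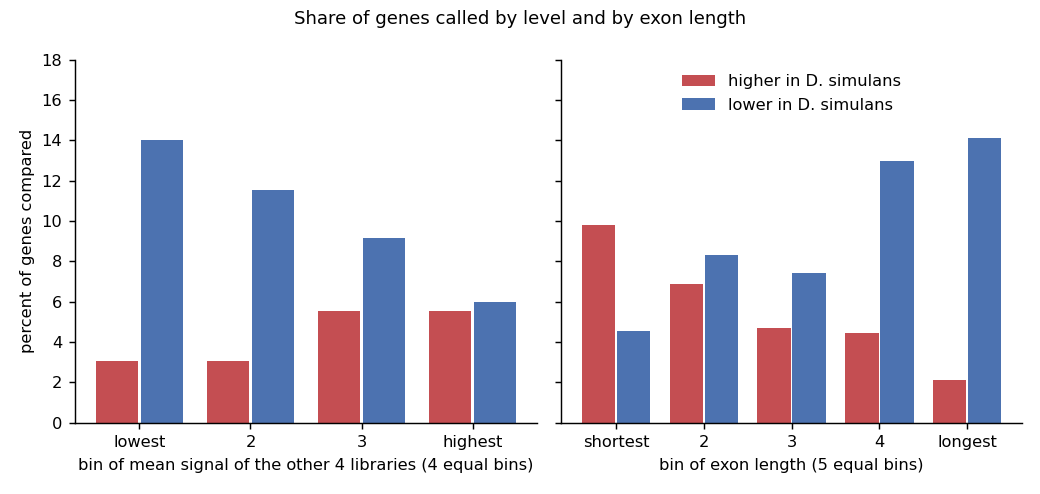
Percent of compared genes that were higher (red) or lower (blue) in D. simulans, in 4 bins of the mean signal over the other 4 libraries (left) and in 5 bins of the exon length of the D. melanogaster gene (right). Lower calls fall from 14% to 6.01% from the lowest to the highest level and are 4.56% for the shortest and 14.1% for the longest genes, and higher calls rise from 3.05% to 5.53% with level and fall from 9.83% to 2.13% with length.

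The length behind the values was not the same in all libraries. In D. melanogaster 79.5% of the lowest values came within 0.1 of a whole number of reads when multiplied by exon length, and 26.3% by coding length. In D. simulans the shares were 66.8% by coding length and 27.8% by exon length, and in D. yakuba, D. pseudoobscura and D. persimilis coding length also gave more whole reads. A D. melanogaster gene with long untranslated regions therefore has a lower signal than it would have on the scale of the other 4 species. With D. melanogaster put on coding length, 278 genes were higher, 249 of them shared with the 278 above, and 456 were lower, 432 shared. Among the phototransduction genes Galpha49B then had a gap of 0.68, below the threshold.

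Called genes were spread over the chromosome arms. The share of higher genes lay between 4.63% on 3R and 6.76% on X, and of lower genes between 7.79% on 2L and 10.5% on 3R, with 4 lower and no higher gene among 36 on chromosome 4. The library nearest to D. simulans was D. melanogaster for 96 of the 278 higher genes, D. yakuba for 86, D. persimilis for 61 and D. pseudoobscura for 35. For the 472 lower genes it was D. persimilis for 140, D. melanogaster for 129, D. yakuba for 127 and D. pseudoobscura for 76. At the edge of the rule, CG31288, betaTub97EF and CG6299 were just inside upward, with gaps of 1.01, 1.02 and 1.02, and CG14997, CG7966 and PO45 just outside, with 0.9996, 0.998 and 0.994. Downward, E2f, sano and CG1299 were just inside at 1.0009, 1.002 and 1.003, and BicD, CG1648 and CG13667 just outside at 0.99 each.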

How the data were processed

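Reads were counted per gene in 1 Johnston's organ library per species. The deposited counts of each library are whole numbers per gene of its own annotation release, per the labels 1.4 (D. simulans), 5.46 (D. melanogaster), 1.3 (D. yakuba and D. persimilis) and 2.30 (D. pseudoobscura). The submitters' processing notes name HTSeq and TopHat2 2.0.3 but no roles or settings, so that reads of overlapping genes, near-identical copies and opposite strands cannot be told apart. Counts served for depth and for D. melanogaster reads per gene.

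The deposited signal values of the cross-species table are not described in the labels. Their upper quartile is 34.3 in every library, and they were used as they stand. In D. melanogaster, for 5842 genes with over 20 reads, signal times exon length over count lay within 5% of its median for 76.8%. The length used and the worth of 1 read were read from values of up to 10 reads, and estimated D. simulans reads are signal times coding length of the D. melanogaster gene over 136. No source used here says how orthologues were matched, so that a difference in level and a match to another family member cannot be told apart.

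Differences were taken on log2(signal + 1), with no test, p-value or SD since each group is 1 library. The rule was tested on simulated data. Lengths and coordinates come from BDGP6, a later build than the authors', for 8087 of 8180 symbols, of which 1622 matched by an older symbol. The members and gene lists were chosen with earlier results of these data known. Named were the 15 largest gaps each way above 0 in all libraries, the 10 largest with a 0, the 10 most abundant each way, called list members (the 6 largest gaps where over 10 were called), compared channel, eggshell and phototransduction genes, and the 3 genes on either side of the threshold. Uncalled genes beside them, and genes named with neighbours, were chosen after their values were seen. Alternatives changed the scaling, pseudocount, filter, threshold, length, overlaps and libraries. Python 3.11.15, numpy 2.4.6, pandas 2.3.3, scipy 1.17.1 and statsmodels 0.14.6 were used.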

Additional observations from a re-analysis of the deposited data

How the results depend on the processing

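The counts of 278 higher and 472 lower genes moved by over 1.5 times under these settings. Some of these settings also changed the number of genes compared, so shares are given for them, against 5.58% higher and 9.47% lower in the main count. Higher genes numbered 112 with equal library totals and 79 at a 4-fold threshold. They numbered 426 of 8180 (5.21%) with no filter on low values and 164 of 2841 (5.77%) with genes sharing exonic bases left out. Lower genes numbered 230 with a pseudocount of 5 and 167 at a 4-fold threshold. They numbered 202 of 2986 (6.76%) where the mean signal had to reach 20 and 299 of 2841 (10.5%) with genes sharing exonic bases left out. Under the other settings they lay within 1.5 times of the main counts, including 302 and 455 under TMM factors and 290 and 454 under median of ratios. Leaving out 1 other library gave 332 to 403 higher and 533 to 618 lower genes, since fewer libraries set the range. Without the members of the eye, eggshell, immune, heat shock and digestive lists, an alternative chosen after seeing the data, 254 genes were higher and 472 lower. The coding length, depth and other-library mean alternatives given with the results were also chosen then. Of 137 called genes named by rule, 87 kept their call under all 12 alternatives tried for single genes. Equal totals lost 27 of 75 upward, and a pseudocount of 5 lost 20 of 62 downward, Oseg1, Oseg4, Oseg5, CG15161, CG15666 and Cby among them. The cause was not tested. The median of 8 of 26 lists changed sign between scalings, but relative to all genes only that of the glutathione and UDP-glycosyl transferases did, from -0.01 to 0.05 under equal totals. No paired analysis was possible because each species had 1 library.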

Other observations

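Of 276 higher genes placed in the D. melanogaster genome, 44 (15.9%) had a neighbour called in the same direction, and of 466 placed lower genes 101 (21.7%) did. Of all 4912 placed genes, 10.9% had a neighbour that was higher and 18% one that was lower. Called genes thus had such a neighbour somewhat more often than placed genes in general, in both directions, and this difference was not tested. Some pairs and runs hold genes known from the eye. Xport-A and Xport-B (Xport and CG42508 in the table), which help rhodopsin and TRP leave the endoplasmic reticulum, share the locus 3R:19914320-19915412. Xport had 37.2 against 0, 9.11, 7.62 and 0 and CG42508 had 54.5 against 0, 11.6, 6.35 and 0, and since they share exonic bases their reads cannot be told apart. The genes stops, CG1544 and chp lie together at 3R:31158156-31210730. stops, which ends the light response in D. melanogaster, had 33.6 against 0.0523, 4.97, 0 and 0, and CG1544 had 46.9 against 4.0, 21.2, 0 and 0. Of these, Xport, CG42508, stops and chp were compared only because of their D. simulans value. The P450 genes Cyp309a1, with 120.2 against 5.58, 2.17, 31.5 and 46.6, and Cyp309a2, with 21.8 against 3.13, 3.56, 0 and 7.70, are neighbours at 2L:2562483-2573037, and the latter was compared only because of its D. simulans value. Overlap and shared copies were not examined run by run.

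Cytochromes P450 as a family were higher for 3 of 31 and lower for 2. Cyp9c1 had 72.4 against 0, 19.5, 1.29 and 3.84 and was listed at 0 in D. melanogaster. Cyp9h1 went down, with 0 against 50.3, 17.3, 8.07 and 8.16, as did Cyp317a1, with 1.36 against 30.4, 12.7, 29.9 and 21.4. Of 15 cuticular proteins 2 were higher and 1 was lower, with Pcp, a pupal cuticle protein, at 39.2 against 0, 0, 0.176 and 0, and both higher ones were compared only because of their D. simulans value. The 23 proteasome genes had no call in either direction. Among RNA polymerase and general transcription genes 2 of 41 were higher and 2 lower: the RNA polymerase subunit Rpb10 had 826 against 326, 290.5, 317 and 317, while the second largest subunit of RNA polymerase II, RpII140, had 4.12 against 20.2, 9.46, 13.1 and 12.4. Both calls ended under a change of scaling, with a gap of 0.44 for Rpb10 under equal totals and 0.96 for RpII140 under TMM.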
